A study of Mus musculus with 6 samples.

Results

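Granulosa cells without the kinases ERK1 and ERK2 were compared with wild type cells 2.5 h after human chorionic gonadotropin (hCG). The comparison is the log2 difference, KO minus WT, between 2 of the 6 arrays of the series, and both were chosen by their labels. The KO mice carried an ERK1 knockout, which affects all tissues, with a floxed ERK2 gene (ERK2 fl/fl) and Cyp19CRE, a Cre recombinase under a promoter of the aromatase gene. ERK2 is therefore lost only in cells in which that promoter has been active, and the share of cells that lost it is not given by the labels. The mice set against them were wild type, and no label describes a Cre-only or floxed-only control. All mice were immature (23 days) and were primed with 5 IU of equine chorionic gonadotropin (eCG), a hormone that makes follicles grow, for 48 h before 5 IU of hCG. The other 4 arrays hold both genotypes at 0 h (no hCG) and at 4 h after hCG. There was 1 array per genotype and time, and how many mice were pooled on an array is not stated in the labels. Differences at 2.5 h are therefore given without error or test.

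The surge of luteinizing hormone, which hCG imitates, acts on a receptor of mural granulosa cells that raises cAMP. Protein kinase A then phosphorylates CREB, and the cells shed EGF-like growth factors. These act on the EGF receptor of the same and neighbouring cells and switch on the cascade that ends in ERK1 and ERK2. Activated ERK phosphorylates transcription factors and other kinases, and the pathway is known to be needed for ovulation and luteinization in mice.

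The array values are intensities, the brightness of a set of probes for a transcript on a linear scale, in arbitrary units. Of 18194 genes with a probe set of their own, 11422 reached an intensity of 64 on at least 1 of the 2.5 h arrays. That floor lies just above the median of all probe sets, which was 54 in KO and 55 in WT. A gene counted as different when the intensities differed at least 2-fold. Under the floor, 29 of 6772 genes differed 2-fold and were left aside. Near the floor, 3 genes at 2-fold had their brighter array between 64 and 67, and 2 genes at 2-fold had it between 60 and 63. The genes closest to 2-fold on the inside were Bcl6 (124 in KO, 248 in WT) and Acer2 (108 in KO, 54 in WT). Those closest on the outside were Hs6st2 (158 in KO, 315 in WT) and Enc1 (17950 in KO, 8993 in WT), so membership near the threshold turns on very small differences.

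Both arrays carried the markers of granulosa cells. Among 13 measured identity genes, Inha, a subunit of inhibin, read 33651 in KO and 24146 in WT, Foxl2, a transcription factor of ovarian identity, 3703 in KO and 2518 in WT, and Fshr, the FSH receptor, 4468 in KO and 2233 in WT. Of 14 macrophage and leukocyte markers 8 were over the floor, with Ptprc and Itgam under it on both arrays. Of 15 endothelial markers 10 were over the floor, with Pecam1 and Tie1 under it on both arrays and 4 others at least 2-fold lower in KO. Oocyte markers were present, with Gdf9 at 2655 in KO and 2053 in WT. The transcripts of the deleted kinases were not analysed here, and the deletions themselves could thus not be seen in these values. The 3' to 5' ratio, a sign of RNA integrity, was higher in KO for both transcripts examined. It was 3.99 in KO and 3.55 in WT for Gapdh, and 3.11 in KO and 2.56 in WT for Actb. At 0 h and at 4 h the KO ratios were also above those of WT.

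At 2.5 h, 352 of the 11422 genes (3.08%) were at least 2-fold lower in KO than in WT, and 169 (1.48%) were at least 2-fold higher. Large differences were mostly in the lower direction. At 4-fold there were 114 lower genes and 16 higher ones, at 8-fold 36 and 3, and at 16-fold 14 and 0. The remaining genes lay slightly the other way. The median difference of all 11422 genes was 0.14 on the log2 scale (quartiles -0.09 and 0.33), and 65.9% of them read above WT. List medians below are to be read against that 0.14, and list counts against the 3.08% of all genes that were lower and the 1.48% that were higher. Of the 11422 genes, 349 were over the floor in WT only and 199 in KO only. A gene that is over the floor in WT only had to read below WT, so list counts and medians that include such genes are descriptions. Subtracting it from every gene gave 446 lower and 112 higher genes, so the split between the directions depends on the centring.

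Over the lower genes, the medians differed less between times in KO than in WT. Their median intensity was 115, 132 and 153 at 0, 2.5 and 4 h in KO, against 162, 476 and 687 in WT. At 2.5 h, 104 of the 352 (29.5%) were under the floor in KO. A fold against such a value depends on the background and is a ratio of measured values, not a bound. The 169 higher genes had medians of 349, 771 and 597 in KO, against 276, 278 and 255 in WT. The gap between the genotypes at 2.5 h was fixed by the rule that chose both groups, and only the 0 h and 4 h medians lie outside it. At those times the higher genes had medians of 349 and 597 in KO, against 276 and 255 in WT.

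**Figure D1:**
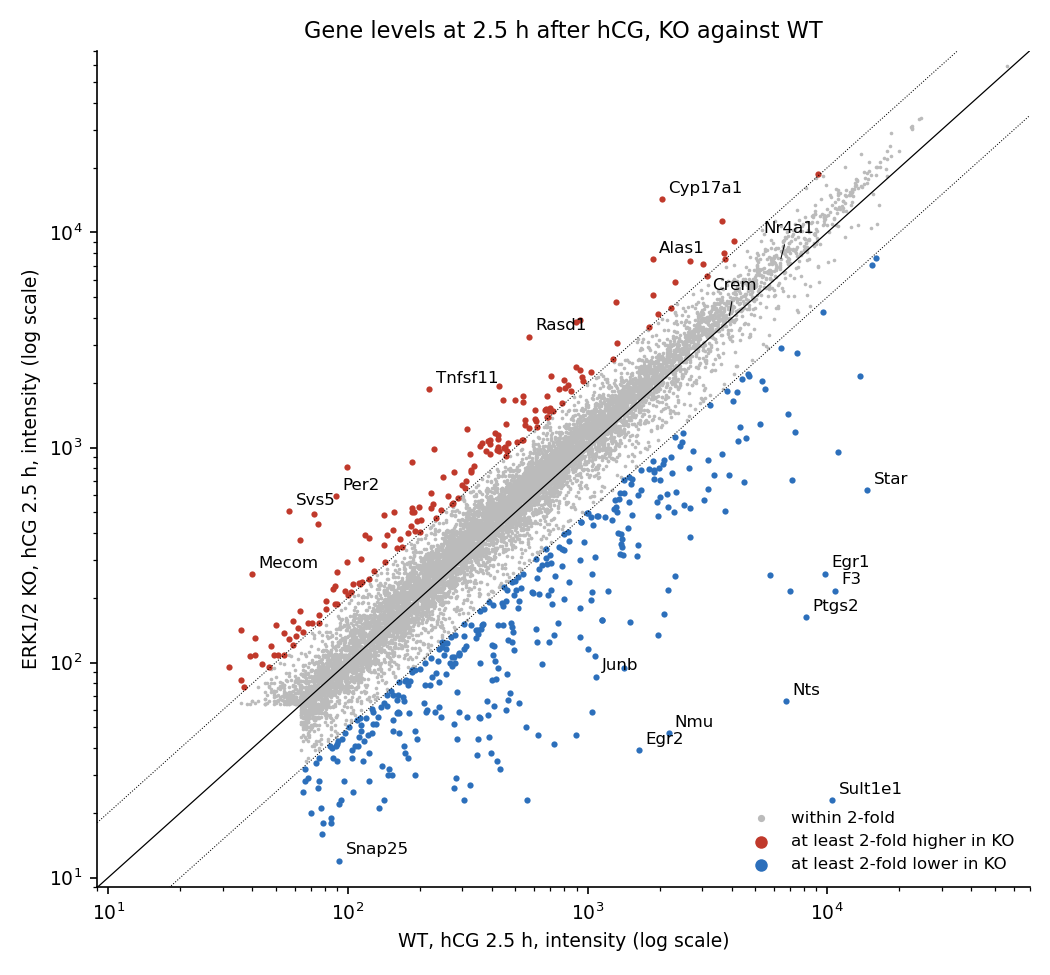
Intensity of each of the 11422 genes over the floor at 2.5 h after hCG, KO on the vertical and WT on the horizontal axis, both on log scales, with 1 array per genotype. Blue points are the 352 genes at least 2-fold lower in KO, red points the 169 at least 2-fold higher, dotted lines mark 2-fold, and the blue points reach much further from the diagonal than the red ones.

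The gene furthest from WT was Sult1e1, the estrogen sulfotransferase. It read 20, 23 and 78 at 0, 2.5 and 4 h in KO, against 20, 10513 and 18464 in WT. At 2.5 h it was 457-fold lower in KO, and KO read under the floor at 0 h and 2.5 h. Nts, which encodes the peptide neurotensin, read 27, 66 and 160 in KO, against 26, 6710 and 10934 in WT. F3, the tissue factor that starts blood coagulation, read 53, 216 and 178 in KO, against 125, 10756 and 7185 in WT. Nts was 102-fold and F3 49.8-fold lower in KO at 2.5 h, and both stayed far below the WT values after hCG. Chst15, a sulfotransferase of chondroitin sulfate, read 157, 216 and 433 in KO, against 403, 7019 and 11451 in WT, a 32.5-fold difference at 2.5 h. G530011O06Rik, a transcript without a name, read 26, 23 and 25 in KO and 37, 561 and 3077 in WT.

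Other genes among the 20 furthest below WT came from several functions. Cited4, a co-regulator of transcription, was 19.5-fold lower (46 in KO, 895 in WT). Rnd3, a small GTPase, was 17.6-fold lower (59 in KO, 1041 in WT), and Hey1, a target of Notch signalling, 15.0-fold (94 in KO, 1413 in WT). Ch25h, which makes 25-hydroxycholesterol, was 17.2-fold lower, with 42 in KO and 724 in WT. Gsta2, a glutathione transferase, read 118, 135 and 96 in KO, against 127, 1963 and 3908 in WT. The neuronal genes Lrrn3, with 32 in KO and 430 in WT, and Arc, with 23 in KO and 306 in WT, were 13.4-fold and 13.3-fold lower. In each of these the KO value at 2.5 h lay near or below the WT value at 0 h.

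Cyp17a1, the enzyme that makes androgens, was among the 20 genes furthest above WT. It read 1845, 14251 and 13997 at 0, 2.5 and 4 h in KO, against 1994, 2037 and 1399 in WT. The genotypes were alike at 0 h and 7.0-fold apart at 2.5 h. Alas1, the first enzyme of haem synthesis, read 970, 7527 and 9192 in KO, against 973, 1867 and 1825 in WT, and was 4.03-fold higher. Rasd1, a Ras-like GTPase, read 784, 3277 and 4033 in KO, against 873, 571 and 376 in WT, and was 5.74-fold higher. Drd4, a dopamine receptor, read 856, 3818 and 3595 in KO, against 719, 894 and 404 in WT. Per2, a repressor of the circadian clock, read 66, 595 and 243 in KO, against 75, 89 and 66 in WT, a 6.69-fold difference that was largest at 2.5 h. These genes were close between genotypes before hCG and separated after it.

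Other higher genes were already apart at 0 h. Tnfsf11, the cytokine RANKL, read 735, 1874 and 2034 in KO, against 78, 219 and 59 in WT. Nxf3, of the nuclear RNA export factor family, read 797, 857 and 849 in KO, against 153, 185 and 320 in WT. Mbnl3, an RNA-binding splicing regulator, read 791, 1927 and 2334 in KO, against 360, 426 and 391 in WT. For these 3 genes every KO array lay above every WT array. Svs5, a gene named for seminal vesicle secretion, was 8.89-fold higher at 507 in KO and 57 in WT, with the WT value under the floor. By contrast Mecom, a zinc finger transcription factor, was close between genotypes at 0 h and furthest from WT at 2.5 h. It read 32, 258 and 69 in KO, against 29, 40 and 32 in WT.

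The probe set used matters for some of the top genes. B4galt6, which makes lactosylceramide, was 8.16-fold higher by its brightest probe set (808 in KO, 99 in WT), but its difference was 0.70 (log2) by the least different of its probe sets. For Gng13, a G protein subunit with 142 in KO and 36 in WT, that value was 0.26. For Dip2a, 3.63-fold higher by the brightest probe set, it was -0.09. Of 206 called genes with several probe sets over the floor, 197 had all of them on the same side of WT and 110 had all of them at 2-fold or more. Conversely, 8 genes within 2-fold by the brightest probe set had another one over the floor at 4-fold or more, 5 of them below WT.

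**Figure D2:**
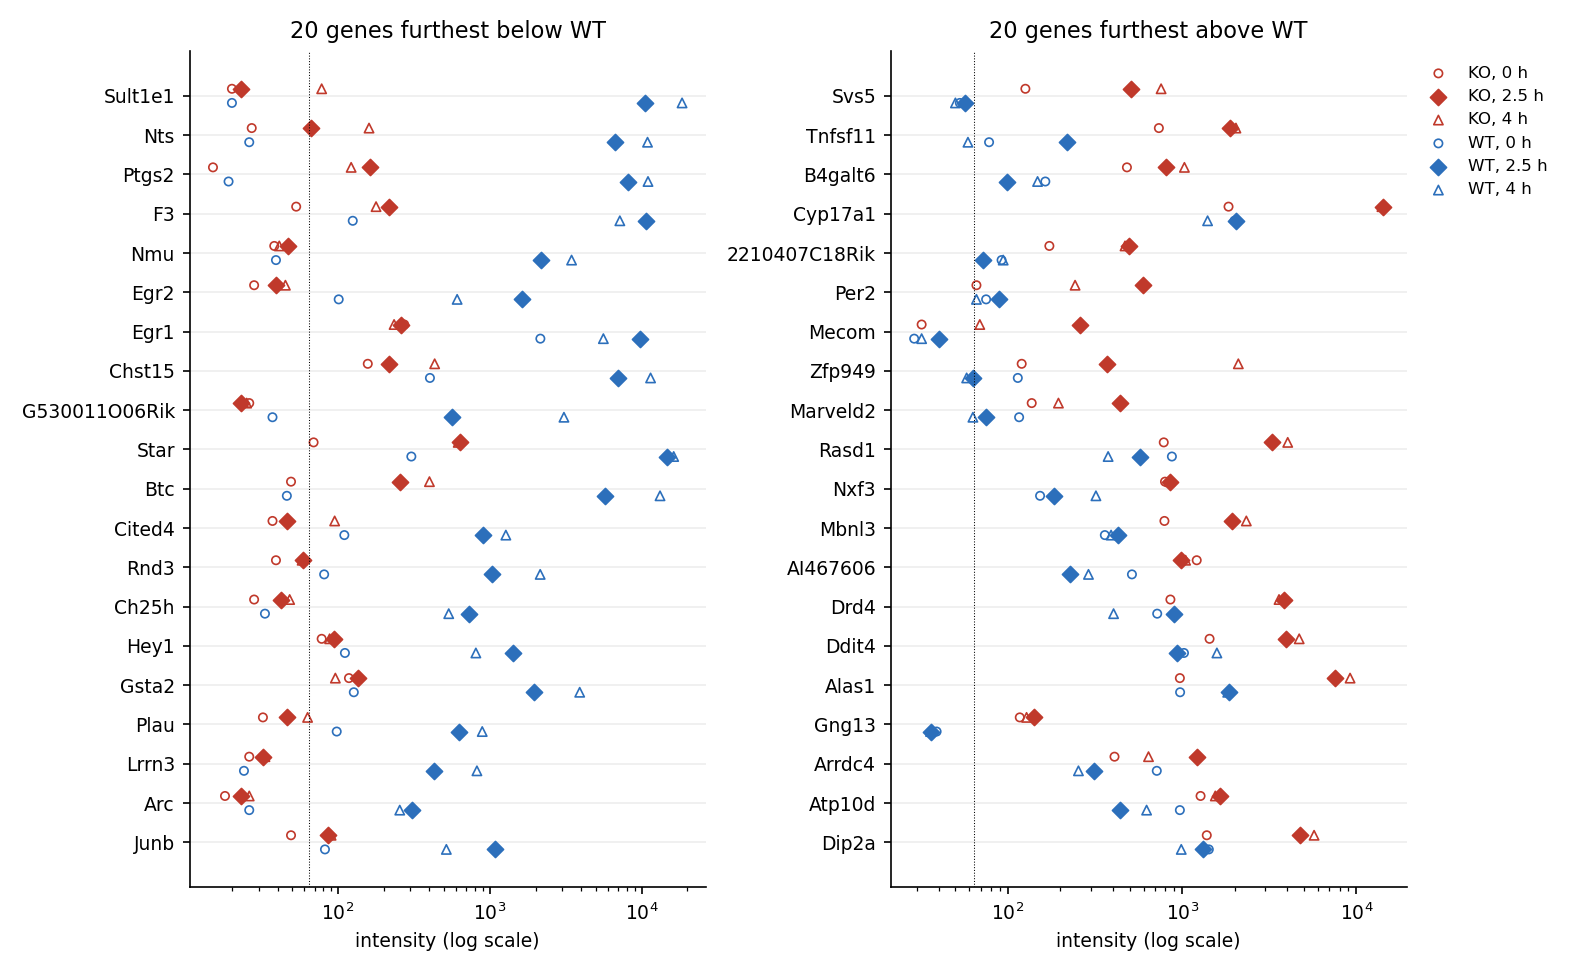
Intensity (log scale) on all 6 arrays of the 20 genes furthest below WT (left) and the 20 furthest above WT (right) at 2.5 h, KO in red and WT in blue, with 1 array per point and a dotted line at the floor of 64. On the left, WT values at 2.5 h and 4 h lie to the right of the KO values of the same time, and some KO values, such as those of Ptgs2 and Star, are also well above their 0 h level; on the right, several KO values leave a nearly constant WT level.

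Promoter windows of the called genes were searched for short motifs of factors that act below cAMP and ERK. A window is the 300 bases from 250 before to 50 after the most upstream RefSeq start, in assembly GRCm38.p6, read on both strands. The table of windows held 261 of the 352 lower genes, 129 of the 169 higher genes and 9264 of all 11422. AP-1 sites, spelled TGANTCA, were in 10.7% of windows of lower genes and in 1.55% of windows of higher genes, beside 4.65% of all windows. The full CRE, the CREB site TGACGTCA, was in 2.3% of windows of lower genes, in 10.1% of windows of higher genes and in 3.32% of all. Its core TGACG, which every full CRE contains, was in 28.0%, 31.8% and 32.1% of the same windows. C/EBP sites (TTNNGCAA) were in 13.0% of windows of lower genes, 5.43% of higher genes and 7.86% of all, and ETS sites (CCGGAAGT) in 1.15%, 2.33% and 8.31%. EGR sites (GCGNGGGCG) were in 14.2%, 13.2% and 11.0%, the CArG box in 1.53%, 3.1% and 1.36%, NBRE sites (AAAGGTCA) in 1.15%, 0.775% and 0.799%, and GC boxes (GGGCGG) in 64.8%, 67.4% and 65.7%. In the 171 windows of genes induced at 4 h in WT, many of which are also lower genes, AP-1 sites were in 8.77%, C/EBP sites in 11.7%, ETS sites in 1.75% and full CREs in 2.92%. A match is a stretch of letters and no measured binding.

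The windows of 6 genes are given for reference, 5' to 3' on the gene's strand, credited to RefSeq. Capitals mark matches to the motifs above other than GC boxes. Ptgs2, Egr2 and Junb were among the 20 lowest genes and Nr4a1 was a bright immediate early gene within 2-fold of WT. Nts and F3 were added after their values were seen, as the 2 genes furthest below WT that have an AP-1 match. The windows lie at chr1:150099781-150100080 on the plus strand for Ptgs2, chr10:67535249-67535548 on the plus strand for Egr2, chr8:84978699-84978998 on the minus strand for Junb, chr15:101266596-101266895 on the plus strand for Nr4a1, chr10:102490369-102490668 on the minus strand for Nts and chr3:121723287-121723586 on the plus strand for F3.
Ptgs2: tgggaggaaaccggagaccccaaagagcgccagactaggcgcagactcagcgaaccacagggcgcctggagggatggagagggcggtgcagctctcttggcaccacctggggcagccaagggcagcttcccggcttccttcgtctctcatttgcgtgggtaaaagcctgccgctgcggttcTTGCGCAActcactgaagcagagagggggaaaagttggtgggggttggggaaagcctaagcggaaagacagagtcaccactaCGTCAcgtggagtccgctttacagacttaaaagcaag
Egr2: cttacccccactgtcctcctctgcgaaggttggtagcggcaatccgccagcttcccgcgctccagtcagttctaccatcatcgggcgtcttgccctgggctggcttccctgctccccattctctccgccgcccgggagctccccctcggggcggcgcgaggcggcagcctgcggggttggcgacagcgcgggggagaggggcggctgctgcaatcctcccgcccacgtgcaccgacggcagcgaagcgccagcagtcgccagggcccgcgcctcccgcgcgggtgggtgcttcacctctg
Junb: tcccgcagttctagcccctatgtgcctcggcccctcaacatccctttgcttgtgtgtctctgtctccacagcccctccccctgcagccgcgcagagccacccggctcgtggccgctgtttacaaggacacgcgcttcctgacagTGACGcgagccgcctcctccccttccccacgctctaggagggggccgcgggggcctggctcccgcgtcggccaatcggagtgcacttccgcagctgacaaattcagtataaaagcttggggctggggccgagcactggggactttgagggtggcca
Nr4a1: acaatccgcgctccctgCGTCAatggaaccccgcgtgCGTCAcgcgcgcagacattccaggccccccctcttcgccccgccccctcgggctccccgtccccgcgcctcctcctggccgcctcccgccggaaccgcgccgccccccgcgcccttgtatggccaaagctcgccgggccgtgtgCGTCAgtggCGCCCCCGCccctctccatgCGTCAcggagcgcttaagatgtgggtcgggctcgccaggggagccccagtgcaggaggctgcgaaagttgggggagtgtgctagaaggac
Nts: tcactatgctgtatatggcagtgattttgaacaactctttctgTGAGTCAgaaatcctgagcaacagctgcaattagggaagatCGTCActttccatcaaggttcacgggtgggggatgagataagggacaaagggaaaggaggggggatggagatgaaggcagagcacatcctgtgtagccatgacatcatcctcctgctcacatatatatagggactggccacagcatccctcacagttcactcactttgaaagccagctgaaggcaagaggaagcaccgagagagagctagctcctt
F3: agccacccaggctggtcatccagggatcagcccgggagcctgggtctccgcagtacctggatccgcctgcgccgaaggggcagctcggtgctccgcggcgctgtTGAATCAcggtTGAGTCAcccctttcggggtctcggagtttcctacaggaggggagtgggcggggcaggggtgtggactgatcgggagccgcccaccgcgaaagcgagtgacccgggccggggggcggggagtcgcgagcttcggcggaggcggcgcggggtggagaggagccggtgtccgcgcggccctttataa
In the window of Ptgs2 the capitals are a C/EBP match at bases 182 to 189 and a CRE core at 264 to 268, counted from the first base printed. Junb has a CRE core at bases 145 to 149. Nr4a1 has CRE cores starting at bases 18, 38, 182 and 211 and an EGR match at 191 to 199. Nts has an AP-1 match at 44 to 50 and a CRE core at 85 to 89. F3 has AP-1 matches at 105 to 111 and 116 to 122. No motif of the list other than possible GC boxes was found in the window of Egr2.

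EGF-like ligands sit at the start of the relay from the LH receptor to ERK. Of 5 measured over the floor, 4 were at least 2-fold lower in KO (median -1.51, log2). The list is incomplete, as Areg (amphiregulin) was not measured and Egf and Nrg1 were under the floor on both arrays. Ereg (epiregulin) read 29, 7644 and 7360 in KO, against 35, 15945 and 15438 in WT, and was 2.09-fold lower at 2.5 h. Btc (betacellulin) read 49, 256 and 400 in KO, against 46, 5768 and 13217 in WT, a 22.5-fold difference. Epgn (epigen) read 26, 158 and 180 in KO, against 27, 1146 and 2697 in WT. The ligands thus differed from each other in how far KO lay below WT, with Ereg high in both genotypes. Hbegf was lower after hCG than at 0 h in both genotypes and read 149 in KO and 424 in WT at 2.5 h. Tgfa differed least (235 in KO, 300 in WT). Among 10 EGF receptors and regulators, the receptor gene Egfr was 2.10-fold higher in KO by its brightest probe set (965 in KO, 460 in WT). Its 4 probe sets over the floor gave differences between 0.215 and 1.069 (log2). Errfi1, a feedback inhibitor of the EGF receptor, read 702, 1183 and 1144 in KO, against 1054, 7360 and 11607 in WT, and was 6.22-fold lower. The adaptors and ligand-shedding enzyme of the list (Grb2, Sos1, Shc1, Adam17) were within 2-fold.

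In the cAMP limb of the signal, 15 of 18 genes of the relay to protein kinase A were within 2-fold (median 0.09). The LH receptor gene Lhcgr was not measured, so the receptor on which hCG acts is not among the 18. Past 2-fold were 1 on the lower side and 2 on the higher side, beside 3.08% and 1.48% of all genes. Gnas, the G protein that stimulates adenylyl cyclase, read 9252 in KO and 8279 in WT, and the kinase subunit gene Prkaca 897 in KO and 902 in WT. The phosphodiesterase genes split. Pde4d read 37, 772 and 597 in KO, against 60, 278 and 226 in WT, and Pde4b 21, 236 and 193 in KO, against 58, 485 and 985 in WT. Pde4d was thus 2.78-fold higher and Pde4b 2.06-fold lower in KO at 2.5 h.

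Among 17 cAMP and CREB targets, some of which are also in other lists, 5 were lower, 1 was higher and the median was -0.13. Of the 17, 1 was over the floor in WT only. Crem, a cAMP-induced transcription factor, read 97, 3940 and 1088 in KO, against 103, 3886 and 2316 in WT. The 2.5 h values of Crem were nearly equal. Gem, a GTPase, read 485, 216 and 171 in KO, against 498, 1218 and 1014 in WT, and lay below its 0 h level in KO but above it in WT. Sgk1, a kinase, was 2.47-fold lower (1641 in KO, 4061 in WT), and Sik1, Per1 and Rgs2 were within 2-fold.

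ERK feedback genes encode phosphatases and inhibitors that the pathway itself induces. Of 15, 7 were at least 2-fold lower in KO and 0 were higher (median -0.73), while at 0 h 1 was lower and the median was already -0.56. At 2.5 h 3 of the 15 were over the floor in WT only. Dusp4, an ERK phosphatase, read 44, 38 and 38 in KO, against 69, 397 and 891 in WT. Ier3 read 540, 955 and 964 in KO, against 973, 11105 and 7782 in WT. Dusp4 was 10.4-fold and Ier3 11.6-fold lower, and Dusp4 did not leave the background in KO. Phlda1 was 4.92-fold lower (59 in KO, 290 in WT) and Spry2, an inhibitor of receptor signalling, 3.0-fold (209 in KO, 627 in WT). Dusp6, the cytoplasmic ERK phosphatase, read 26, 186 and 99 in KO, against 94, 404 and 872 in WT. Its KO value at 2.5 h was above the KO value at 0 h, and the genotype difference was smaller at 2.5 h than at 0 h. Dusp7, Spry1 and Spry4 read nearly the same in both genotypes and did not exceed their 0 h level at 2.5 h in either.

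Immediate early transcription factors are induced within minutes to hours without new protein synthesis. Of 25, 10 were at least 2-fold lower in KO and 2 were higher (median -0.67), and at 0 h 5 were lower (median -0.49). At 2.5 h 3 of the 25 were over the floor in WT only. The EGR family was furthest apart. Egr1 read 273, 259 and 234 in KO, against 2152, 9767 and 5596 in WT, so every KO array was far below every WT array. Egr2 read 28, 39 and 45 in KO, against 101, 1639 and 609 in WT. Differences at 2.5 h were 37.7-fold for Egr1 and 42.0-fold for Egr2. Nab2, a repressor that binds EGR proteins, was 5.3-fold lower (195 in KO, 1034 in WT). Egr3 did not count as lower because its brightest probe set was flat, at 116 in KO and 135 in WT. A second probe set of Egr3 read 13, 20 and 19 in KO, against 47, 1751 and 3160 in WT, a log2 difference of -6.45 at 2.5 h. Only the probe sets of Sult1e1 and Nts among the 20 lowest genes showed a larger one.

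The AP-1 family was split. Junb read 49, 86 and 90 in KO, against 82, 1081 and 517 in WT, and was 12.6-fold lower. Fos read 1118, 1293 and 1208 in KO, against 2660, 5241 and 2372 in WT, and was 4.05-fold lower. Fosl1 and Fosb were 2.6-fold and 3.43-fold lower, at 86 and 28 in KO, against 224 and 96 in WT. Jun was on the other side of WT and read 416, 2363 and 3150 in KO, against 400, 899 and 517 in WT, 2.63-fold higher. Jund was also above WT, within 2-fold (4984 in KO, 3005 in WT). Ier5 was 10.0-fold lower (107 in KO, 1072 in WT), Ier2 2.42-fold and Maff 2.09-fold.

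Other immediate early members lay nearer to WT or on both sides of it. Nr4a1, an orphan nuclear receptor, read 346, 7241 and 7336 in KO, against 812, 6344 and 2192 in WT. The 2.5 h values were within 2-fold, and at 4 h KO stayed high while WT was lower. Atf3 read 219 in KO and 192 in WT, and Btg2 1344 in KO and 1854 in WT. Of the 4 KLF factors in the list, Klf2 was 2.37-fold higher in KO (1002 in KO, 422 in WT), and Klf4 (1017 in KO, 1805 in WT), Klf6 (941 in KO, 1019 in WT) and Klf10 (261 in KO, 216 in WT) were within 2-fold. In the C/EBP family, Cebpa was 2.27-fold lower (573 in KO, 1301 in WT), and Cebpb, which is needed for luteinization in mice, read 523, 1547 and 1995 in KO, against 576, 1373 and 1637 in WT. The Cebpb transcript was thus alike in both genotypes at all times.

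Prostaglandin genes differed in single members and not as a list. Of 13, 1 was lower, 1 was higher and the median was 0.00. Ptgs2, the inducible prostaglandin synthase, read 15, 163 and 122 in KO, against 19, 8192 and 11013 in WT, a 50.3-fold difference. Ptges and Ptgis, the downstream synthases, were within 2-fold, with Ptgis at 2355 in KO and 2353 in WT. Among receptors, Ptgfr read 40, 5126 and 2394 in KO, against 276, 1872 and 675 in WT, so KO was below WT at 0 h and above it after hCG. Ptger4 read 3094 in KO and 1788 in WT at 2.5 h, from similar levels at 0 h of 143 in KO and 136 in WT.

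The hyaluronan matrix, which the cumulus lays down before ovulation, was lower in 7 of 10 genes and higher in 0 (median -1.95). Of the 10, 3 were over the floor in WT only. Has2, the hyaluronan synthase, read 21, 27 and 30 in KO, against 29, 324 and 509 in WT. Tnfaip6, which links hyaluronan to protein chains, read 25, 217 and 281 in KO, against 18, 2172 and 2897 in WT. Ptx3, a pentraxin that crosslinks the matrix, read 42, 116 and 88 in KO, against 62, 1007 and 2680 in WT. The differences at 2.5 h were 12.0-fold for Has2, 10.0-fold for Tnfaip6 and 8.68-fold for Ptx3, and Has2 alone of these stayed under the floor in KO. Cd44, the hyaluronan receptor, was 4.81-fold lower (83 in KO, 399 in WT). Cemip, a hyaluronan-degrading protein, read 17, 26 and 34 in KO, against 105, 278 and 293 in WT, with KO under the floor at all times. Vcan, the proteoglycan versican, was an exception and read 6425, 13003 and 17200 in KO, against 5151, 11613 and 18645 in WT. The matrix protein gene Itih5 was also alike (3689 in KO, 3776 in WT).

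Of 15 ovulation regulators, 7 were lower, 0 were higher and the median was -0.90. Among the 15, 4 were over the floor in WT only. Pgr, the progesterone receptor, read 25, 693 and 1322 in KO, against 25, 4476 and 7661 in WT, 6.46-fold lower at 2.5 h yet well above its own 0 h level. Runx1, a transcription factor, read 223, 168 and 225 in KO, against 256, 2082 and 2933 in WT, staying near its 0 h level in KO, and was 12.4-fold lower. Its probe sets gave differences between -3.63 and -1.02 (log2). Edn2, an endothelin that contracts the follicle, was 9.32-fold lower (37 in KO, 345 in WT), and Pparg 3.3-fold (801 in KO, 2640 in WT). Prkg2 and Snap25, which lie downstream of the progesterone receptor in mice, were still dim at 2.5 h in WT. Prkg2 read 41, 41 and 58 in KO, against 41, 110 and 2449 in WT, and Snap25 read 12, 12 and 16 in KO, against 14, 92 and 862 in WT. The protease Adamts1 stayed within 2-fold, at 1843 in KO and 3058 in WT.

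In the list of tissue factor, plasminogen and matrix proteases, 5 of 14 genes were lower and 0 higher (median -0.65). Of the 14, 4 were over the floor in WT only and 1 in KO only. Besides F3, Plau, the urokinase plasminogen activator, read 32, 46 and 63 in KO, against 98, 623 and 891 in WT, 13.5-fold lower. Its receptor gene Plaur was 2.15-fold lower, with the KO value under the floor (59 in KO, 127 in WT). Plat, the tissue plasminogen activator, read 1900 in KO and 1911 in WT. The inhibitors Serpinb2 (18 in KO, 79 in WT) and Timp1 (346 in KO, 1392 in WT) were 4.39-fold and 4.02-fold lower. Mmp2, Mmp11 and Mmp14 were within 2-fold.

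Of the 13 neuropeptide and secretion genes 9 were over the floor at 2.5 h, 5 of them in WT only. Among the 9, 8 were lower and 0 higher (median -2.94), a median that rests in part on KO values under the floor. At 0 h only 3 were over the floor, and 0 of these were at 2-fold. Nmu, which encodes neuromedin U, read 38, 47 and 41 in KO, against 39, 2179 and 3455 in WT. Npy, neuropeptide Y, read 47, 50 and 57 in KO, against 46, 555 and 1047 in WT. Tac1, the precursor of substance P, read 610, 508 and 534 in KO, against 653, 3756 and 9712 in WT. All 3 stayed near their 0 h level in KO at both times, and at 2.5 h they were 46.4-fold, 11.1-fold and 7.39-fold lower. Adcyap1, the peptide PACAP, was 4.9-fold lower (30 in KO, 147 in WT), and Edn1 2.82-fold (96 in KO, 271 in WT). Gal, the precursor of galanin, was within 2-fold (147 in KO, 232 in WT).

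Steroidogenic genes split. Of 15, 3 were lower, 2 were higher and the median was 0.08. Among the 15, 2 were over the floor in WT only. Star, which brings cholesterol into mitochondria, read 69, 635 and 619 in KO, against 304, 14678 and 16259 in WT, 23.1-fold lower at 2.5 h. Cyp11a1, the enzyme that acts on that cholesterol, read 2598, 9524 and 12909 in KO, against 6878, 11901 and 13351 in WT. Its genotype difference was smaller at 2.5 h than at 0 h. Fdx1, its electron donor, was above WT within 2-fold (30615 in KO, 22681 in WT). Hsd17b7 was 4.8-fold lower (1427 in KO, 6847 in WT), while Hsd17b1, which makes estradiol, was 2.06-fold higher (18764 in KO, 9121 in WT). Sult1e1 and Cyp17a1 belong to this list too, and they are the extremes of its range.

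Sterol synthesis genes had 4 of 21 members past 2-fold below WT and 0 above it (median -0.50). The same numbers were found before hCG (4 lower and 0 higher at 0 h, median -0.49), and at 4 h the median was 0.10. The lower genes were Hsd17b7, Cyp51 (800 in KO, 1994 in WT), Lss (289 in KO, 701 in WT) and Sc5d (2200 in KO, 4679 in WT). These 4 act in the late, post-squalene part of the pathway, but other genes of that part were within 2-fold. Among those were Msmo1 (-0.875, log2), Tm7sf2 (-0.542), Nsdhl (-0.406), Ebp (-0.256) and Dhcr7 (-0.15). By its least different probe set Sc5d differed by only -0.246. Cyp51 read 246, 800 and 965 in KO and 517, 1994 and 2655 in WT, so it was higher after hCG than at 0 h in both genotypes with KO lower throughout. Srebf2, the factor that governs the pathway, read 380 in KO and 326 in WT.

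Preovulatory granulosa genes were, as a list, slightly above WT (median 0.36), with 3 of 22 higher and 1 lower. Fshr read 5345, 4468 and 3603 in KO, against 4454, 2233 and 708 in WT. Gata4, a transcription factor, read 729, 1503 and 1302 in KO, against 840, 672 and 361 in WT. Inhbb read 20115, 23283 and 22865 in KO, against 21559, 13813 and 2518 in WT. At 2.5 h Fshr was 2.0-fold and Gata4 2.24-fold higher in KO, Inhbb was within 2-fold, and all 3 had larger differences at 4 h. Fzd1, a Wnt receptor, was the lower member (302 in KO, 610 in WT).

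Luteal genes included 5 lower and 2 higher of 16 (median -0.32), with 1 over the floor in WT only. They were further below WT before hCG, with 8 of 16 lower at 0 h and a median of -0.96. Sfrp4, a secreted Wnt modulator, read 251, 2141 and 3532 in KO, against 2784, 13712 and 21796 in WT, and was lower in KO at each time. Tnfrsf12a, the receptor of TWEAK, read 272, 1108 and 1482 in KO, against 734, 4576 and 6113 in WT. Fzd4, a Wnt and norrin receptor, was 2.7-fold higher (1140 in KO, 422 in WT). The cell cycle inhibitor Cdkn1a was alike at 2.5 h, with 1689 in KO and 2097 in WT.

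Several factors and receptors of vessels and immune cells were lower. Of 12 angiogenic factors, 5 were lower and 0 higher (median -0.89), and 2 of the 12 were over the floor in WT only. Efnb2, an ephrin, read 237, 180 and 189 in KO, against 219, 926 and 1910 in WT, 5.14-fold lower by its brightest probe set, though another probe set gave 0.29 (log2). Vegfc was 3.21-fold lower (48 in KO, 154 in WT), and Vegfa just missed 2-fold (636 in KO, 1263 in WT). Of 10 cytokines, chemokines and innate genes, 5 were lower and 1 higher (median -0.79). Cxcr4, a chemokine receptor, read 21, 111 and 201 in KO, against 27, 291 and 1883 in WT. Socs3, a feedback inhibitor of cytokine signalling, was 2.37-fold lower (223 in KO, 528 in WT), Tnfaip3 2.6-fold (106 in KO, 276 in WT) and Cxcl1 2.35-fold (288 in KO, 677 in WT). Tnfsf11 was the higher member.

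Small GTPase, WNT, BMP and clock genes had medians between -0.10 and 0.03 and a few members far from them. Of 12 RGS and GTPase genes, 4 were lower and 1 was higher (median -0.01), with Rnd3 and Rrad (63 in KO, 409 in WT) low and Rasd1 high. Of the 12, 3 were over the floor in WT only. Rgs2 was bright and alike in both genotypes, at 16226 in KO and 14034 in WT. Of 14 WNT genes 2 were lower and 1 higher (median -0.10), and of 22 BMP, activin and SMAD genes 3 were lower and 1 higher (median 0.03). Of these 22, 3 were over the floor in WT only. Bmp2 read 738, 253 and 368 in KO, against 1200, 2320 and 1892 in WT, 9.17-fold lower, while its antagonist Grem1 was 2.14-fold higher (1480 in KO, 692 in WT). Bambi, a pseudoreceptor, was 2.65-fold lower (110 in KO, 291 in WT). Of 16 clock genes (list median -0.04), 1 was over the floor in WT only. Among the 16, Per2 was higher and Bhlhe40, a repressor, 2.65-fold lower (632 in KO, 1674 in WT). Cry2 (2220 in KO, 1852 in WT) and Per1 (577 in KO, 630 in WT) were within 2-fold.

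Cell cycle genes differed little. Of 29 mitosis genes 0 reached 2-fold, but 27 read above WT where 65.9% of all genes did, and the list median was 0.48. Prc1, a spindle protein, was furthest from WT (2836 in KO, 1655 in WT). DNA replication genes had a median of 0.17, close to that of all genes, with 0 of 23 at 2-fold. Of 16 D cyclins and inhibitors only Gadd45a was past 2-fold, at 88 in KO and 257 in WT. Among the 16, 1 was over the floor in WT only.

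Metabolic and stress genes differed in few members. In the glycolysis and hypoxia list (18 genes, median 0.38) Slc2a1, the glucose transporter, read 448, 318 and 402 in KO, against 679, 1402 and 2586 in WT, and was 4.41-fold lower. Ddit4, an inhibitor of mTORC1, read 1436, 3927 and 4693 in KO, against 1024, 930 and 1582 in WT, and was 4.22-fold higher. Of 17 unfolded protein and heat shock genes, Hspa1b was 2.34-fold higher (1947 in KO, 833 in WT) and the rest were within 2-fold (median 0.10). The 13 reference genes had a median of 0.20 and 0 at 2-fold.

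**Figure D3:**
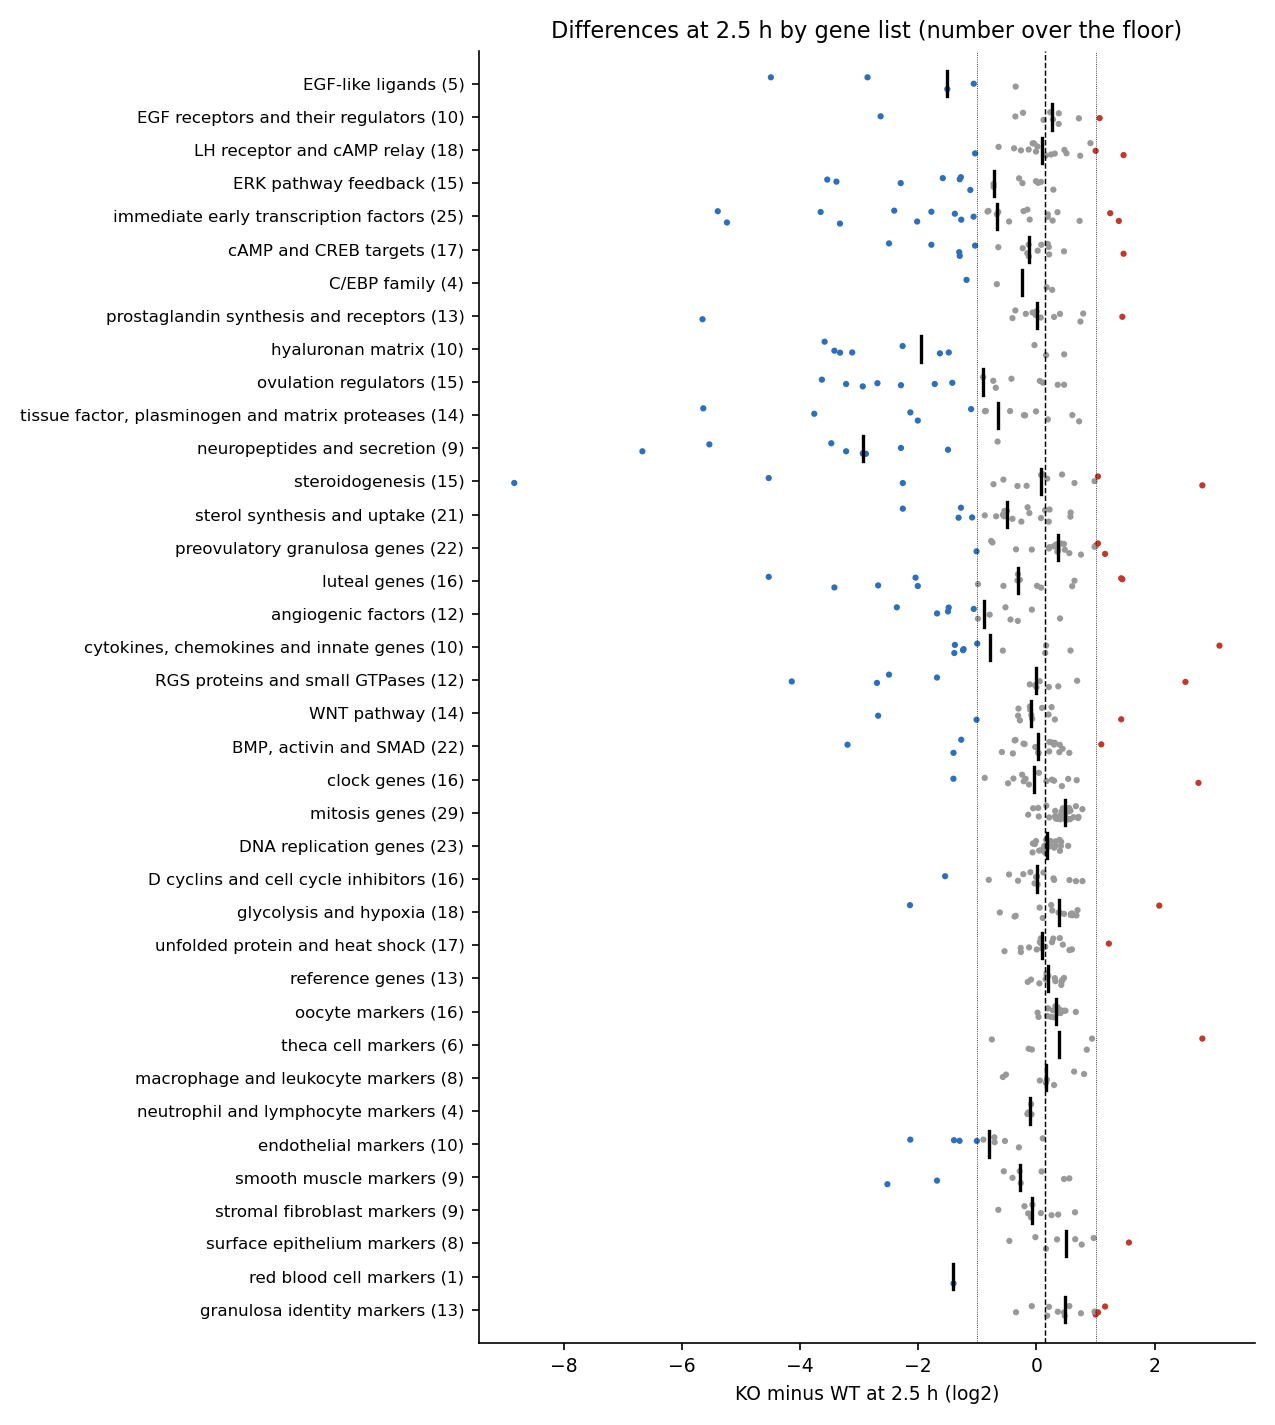
Log2 difference, KO minus WT, at 2.5 h for every gene over the floor in 38 gene lists, with the number of genes in parentheses, 1 point per gene and a black bar at the list median. Blue and red points are at least 2-fold lower and higher, dotted lines mark 2-fold and the dashed line the median of all 11422 genes at 0.14; genes over the floor in WT only are among the points, and points far below the dashed line are more frequent than points far above it.

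Markers of other cells also differed between the 2.5 h arrays. Endothelial markers had 4 of 10 genes lower and 0 higher (median -0.81). Of the 10, 3 were over the floor in WT only and so had to read below WT. Cldn5 read 62, 69 and 77 in KO, against 79, 170 and 85 in WT, and Icam2 27, 28 and 37 in KO, against 54, 123 and 88 in WT. The summed intensity of the 15 measured endothelial markers was 1171, 1313 and 1300 in KO, against 1341, 2195 and 1708 in WT. The angiogenic factors and cytokines above lay below WT on the same arrays, and the part of vessel cells in those differences was not tested. Of 9 smooth muscle markers over the floor 2 were lower, 0 were higher at 2-fold and 3 read above WT (median -0.28). The lower ones were Pdgfrb (66 in KO, 379 in WT) and Rgs5 (38 in KO, 122 in WT), which was over the floor in WT only. The other probe set of Pdgfrb was within 2-fold (-0.80, log2). Acta2 was within 2-fold too (2861 in KO, 3481 in WT). Fewer cells of a type and less RNA per cell cannot be told apart in such bulk samples.

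Oocyte markers read above WT in 16 of 16 genes over the floor (median 0.34), 0 of them by 2-fold. The summed intensity of all 17 measured oocyte markers was 47913, 20197 and 17637 in KO, against 25969, 16212 and 17319 in WT. By this sum the genotypes were closer at 2.5 h than at 0 h. The part of oocytes in the higher genes was not tested. Khdc1a, among the higher genes, read 187 in KO and 88 in WT at 2.5 h. Theca markers were led by Cyp17a1, and the rest of that list was within 2-fold. Ptch1 was below WT (1060 in KO, 1789 in WT) and Aldh1a1 above (9852 in KO, 5458 in WT). Macrophage markers had 0 of 8 at 2-fold (median 0.17), and 6 of the 8 read above WT. All 14 measured, including those under the floor, summed to 4034 in KO and 4714 in WT. Of surface epithelium markers Krt7 was 2-fold or more higher, at 293 in KO and 99 in WT (list median 0.50). Neutrophil and lymphocyte (median -0.11) and stromal fibroblast markers (median -0.07) had 0 genes at 2-fold. Alas2, the red cell marker over the floor, read 193 in KO and 516 in WT.

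The 0 h and 4 h pairs are other arrays, and they give the genotype difference before hCG and at a later time. At 0 h, 0.908% of 11346 genes were lower in KO and 0.811% higher, and at 4 h 4.15% of 11467 were lower and 4.99% higher. Across the 11422 genes, which are not independent, the log2 intensities of KO and WT had a Pearson r of 0.983 at 0 h, 0.957 at 2.5 h and 0.933 at 4 h. Of the 352 genes lower at 2.5 h, 334 were over the floor in the 4 h pair and 270 of them (80.8%) were at least 2-fold lower there too, beside 3.82% of all genes tested at 2.5 h. None of the 334 was 2-fold higher, 331 read below WT (32.5% of all genes did at 4 h) and their median was -1.76. Of the 352, 85 were under the floor in KO at 4 h and 19 in WT. A gene over it in WT only had to read below WT, so these shares are descriptions. The 270 genes are 76.7% of the 2.5 h list and 56.7% of the 476 lower genes at 4 h.

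Before hCG most of these genes were within 2-fold of WT. At 0 h, 272 of the 352 were over the floor, 53 (19.5%) were lower by 2-fold, beside 0.9% of all genes, 2 were higher and the median was -0.49. At that time 116 of the 352 were under the floor in KO and 83 in WT. The 53 are 15.1% of the 2.5 h list and 51.5% of the 103 genes lower at 0 h. Of the 169 higher genes, 165 were over the floor at 4 h. Of those, 108 (65.5%) were at least 2-fold higher again, beside 5.03% of all genes, 0 were lower and the median was 1.20. Of the 169, 27 were under the floor in WT at 4 h and 4 in KO, and a gene over it in KO only had to read above WT. These 108 are 63.9% of the 2.5 h list and 18.9% of the 572 genes higher at 4 h. At 0 h, 15 of 158 (9.49%) were higher, beside 0.702% of all genes, and 4 were lower (median 0.10). With cyclic loess, the count of genes 2-fold higher in both pairs was 71.

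**Figure D4:**
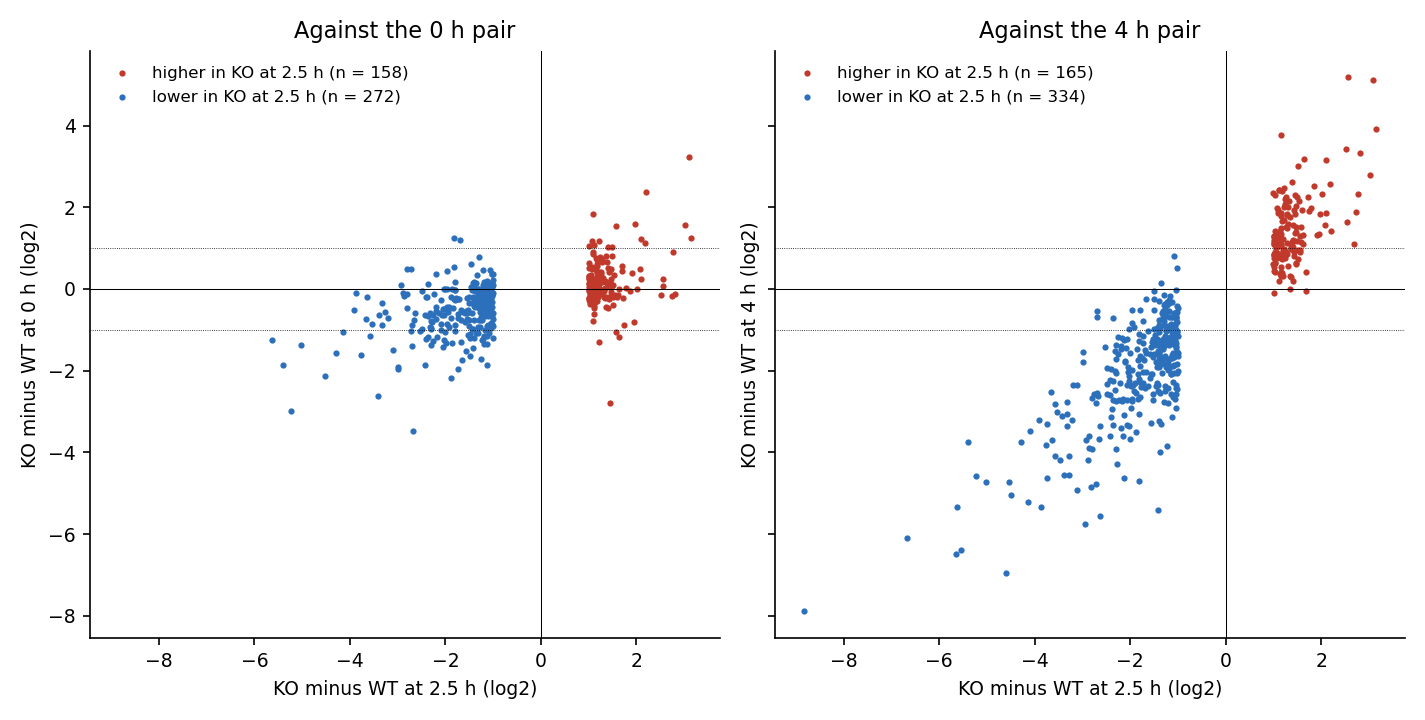
Log2 difference, KO minus WT, at 2.5 h (horizontal) against the same difference at 0 h (left) and at 4 h (right), for genes at least 2-fold higher (red) or lower (blue) at 2.5 h and over the floor in the other pair. Dotted lines mark 2-fold; at 4 h the points keep the side of WT they had at 2.5 h apart from 3 blue and 3 red points, while at 0 h most lie within 2-fold.

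Some genes carried their genotype difference from before hCG. Among the 352 lower genes, the change of the difference between 0 h and 2.5 h was smallest, or went toward WT, in Sfrp4, Dusp6, Prg4, Pde4b, Pamr1 and Fgd5. Prg4, the lubricating proteoglycan 4, read 93, 67 and 74 in KO, against 306, 160 and 150 in WT, and Fgd5 read 214, 146 and 139 in KO, against 832, 486 and 308 in WT. For these 2 genes every KO array was below every WT array. The change was largest in Sult1e1, Nts, Nmu, Ptgs2, Btc and F3, of which all but F3 were within 2-fold at 0 h. Among the higher genes it was smallest in Khdc1a, Nxf3, Tnfsf11, Eppin, Ramp1 and Krt7. Ramp1, an accessory protein of calcitonin family receptors, read 771, 914 and 728 in KO, against 375, 456 and 409 in WT. The change was largest in Ptgfr, Per2, Cyp17a1, Tulp2, Arrdc4 and Rasd1. Arrdc4, an arrestin-like protein, read 409, 1218 and 641 in KO, against 715, 314 and 254 in WT.

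Responsive genes can be chosen without the 2.5 h arrays, on WT at 4 h against WT at 0 h. By this choice 248 of 11554 genes (2.15%) exceeded their 0 h level 4-fold or more at 4 h, and 72 (0.623%) lay 4-fold or more under it. Of the 248, 221 were over the floor at 2.5 h, and 148 of those (67.0%) were at least 2-fold lower in KO, 73 at least 4-fold (beside 0.998% of all genes), while 2 (0.905%) were higher. The median difference of the 221 was -1.41, beside 0.14 for all genes, and 204 read below WT, as did 33.4% of all genes. Some of the 221, such as Sult1e1, Nmu and Egr2, were over the floor at 2.5 h in WT only and had to read below WT. How many did so was not counted, so these shares are descriptions. Chosen instead on KO at 4 h against KO at 0 h, 94 genes gave 20 lower and 23 higher in KO at 2.5 h, with a median of 0.00. The result thus depends on the genotype in which the responsive genes are chosen.

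Among the WT-induced genes, 71 were within 2-fold at 2.5 h. The 8 closest to WT were Tpm4, Crem, Ezr, Adgrf5, Npr3, Coq10b, Gtdc1 and Btg1. Tpm4, a tropomyosin, read 2468, 8838 and 8960 in KO, against 2446, 8945 and 11575 in WT. Ezr, which links membrane and actin, read 877, 2989 and 2938 in KO, against 777, 3077 and 3233 in WT. Btg1, an antiproliferative gene, read 1947, 11547 and 10331 in KO, against 1983, 10635 and 9815 in WT. Npr3, the natriuretic peptide clearance receptor, read 17, 298 and 244 in KO, against 15, 309 and 501 in WT. In these 4 genes the value at 2.5 h was well above 0 h in both genotypes, and by about as much. The 8 furthest from WT were Sult1e1, Nts, Ptgs2, F3, Nmu, Egr2, Chst15 and G530011O06Rik.

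Of the 72 genes lower in WT at 4 h, 70 were over the floor at 2.5 h. In KO 5 of these were lower, 4 were higher and 61 were within 2-fold, with a median of 0.04. The largest difference was that of 1110032F04Rik, which read 3606, 314 and 256 in KO, against 5672, 1609 and 420 in WT, 5.12-fold lower at 2.5 h. Myf5 read 342, 41 and 40 in KO, against 298, 89 and 63 in WT, and Gpr155 read 781, 118 and 93 in KO, against 915, 248 and 53 in WT. These were below WT at 2.5 h while far below 0 h in both genotypes. Kcne2, a potassium channel subunit, read 224, 401 and 287 in KO, against 187, 179 and 21 in WT. Capn5 (420 in KO, 410 in WT) and Cc2d2a (633 in KO, 650 in WT) were among the closest.

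**Figure D5:**
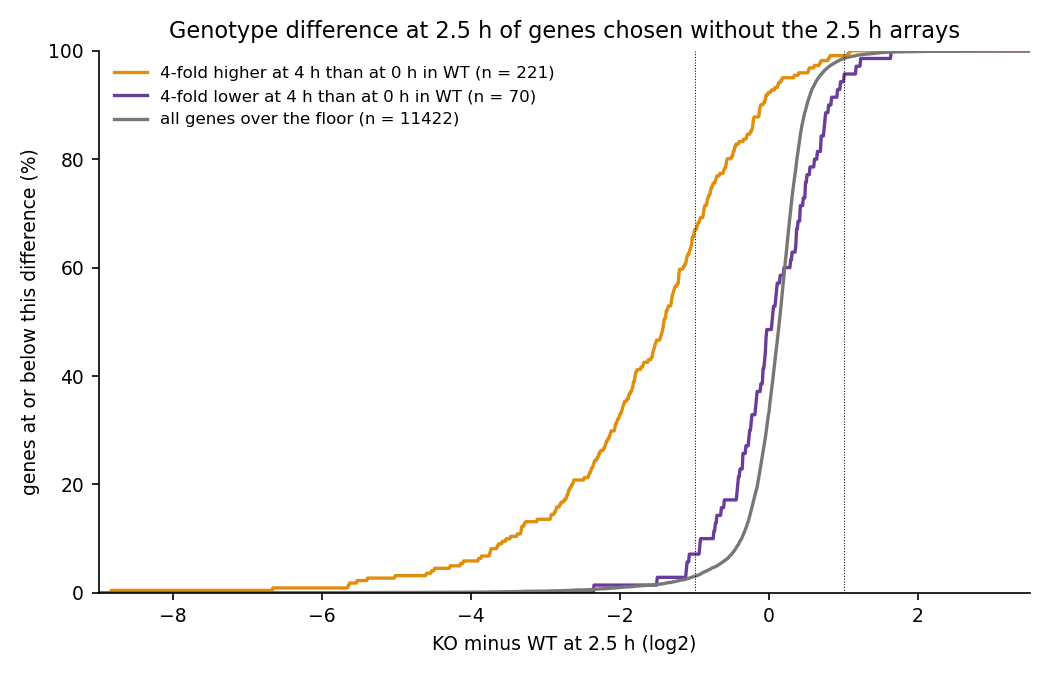
Cumulative share (%) of genes at or below each log2 difference, KO minus WT, at 2.5 h, for genes at least 4-fold higher at 4 h than at 0 h in WT (orange, n = 221), at least 4-fold lower (purple, n = 70) and all genes over the floor (grey, n = 11422). Dotted lines mark 2-fold. The orange curve has passed 67.0% at the lower line, while the grey curve is at 3.08% there. Genes over the floor in WT only are among those counted.

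A model over all 6 arrays tests the genotype difference over the times together. In limma, with time as a block and the genotype as the coefficient, 3 of 11153 genes were lower and 1 higher in KO at an adjusted p of 0.05 (0.0359% in all), and 1940 had an unadjusted p under 0.05. With cyclic loess, or without the filter on dim genes, 0 genes passed in either direction, and 1839 and 2694 had an unadjusted p under 0.05, so the 4 calls rest on these settings. The residual of the model is the variation of the difference between times and does not measure the spread between animals. In simulated data each planted difference was the same at all 3 times, and differences that change between times were not simulated. The model recovered 0% of planted 2-fold differences, 76% of 4-fold and 98.5% of 16-fold ones. The small count of calls therefore does not show that few genes differed 2-fold. Cemip had a mean difference of -3.05 (SE 0.184, adjusted p = 0.0343, limma), Sfrp4 -2.93 (adjusted p = 0.0389, limma), Cdc42ep3 -1.81 and Gng13 1.80 (both with an adjusted p of 0.0436, limma). Cdc42ep3, an effector of CDC42 GTPases that read 229, 152 and 127 in KO, against 770, 480 and 516 in WT, was named after its values were seen. For each of the 4, KO was on the same side of WT at all 3 times. The values of Gng13 are those of its brightest probe set, and its other one differed by only 0.26 (log2) at 2.5 h. Egr1, with a mean difference of -4.27, and Tnfsf11, with 3.81, both had an adjusted p of 0.0561 (limma). Sult1e1, furthest from WT at 2.5 h but equal at 0 h, had an adjusted p of 0.227 (limma). The counts were 182 lower and 63 higher without the 4 h pair, 278 lower and 193 higher without the 0 h pair, and 13 lower and 3 higher without the 2.5 h pair.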

How the data were processed

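The authors deposited 1 table of Affymetrix array intensity values per probe set, whole numbers on a linear scale made with RMA in the affy package, of unstated version, per the submitters' processing notes. RMA equalises the distribution of values across arrays, so it hides any change in a cell's total RNA, and rounding makes dim values coarse. Per the labels' protocols, biotin-labelled cRNA was made from total RNA of granulosa cells. The precision is limited by 1 array per genotype and time (6 in all).

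Of 45101 probe sets, 34958 named 1 gene in the platform annotation, 932 several and 9211 none. By gene ID, 34754 had an entry in a mouse table of assembly GRCm38.p6, which changed 0 symbols. Each of 18194 genes took the values of its brightest probe set, by mean log2 over all arrays. The value reported is log2 of the intensity in KO minus WT, called at 2-fold with the brighter array at 64 or more. Genotype over all times was tested with limma 3.58.1 in R 4.3.3 (lmFit and eBayes, time as a block, genes with a mean log2 of at least 6, Benjamini-Hochberg at 0.05) after testing on simulated data. Its residual is the variation between times, so animals are not its replicates. Counts and figures used Python 3.11.15 with pandas 2.3.3.

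Named are the 20 genes with the largest difference in each direction, members of 38 gene lists, the 8 closest to and 8 furthest from WT among genes responding 4-fold in WT at 4 h, and the 6 called genes in each direction with the largest and smallest change of the difference since 0 h. Members and lists were chosen with earlier results of these data known, and some genes are in several lists. Alternatives were other floors, thresholds and probe set rules, a pseudocount of 16, centring, cyclic loess and, for limma, other filters, a trend and leaving out a time.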

Additional observations from a re-analysis of the deposited data

Results flagged for a closer look

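Genes at least 2-fold apart in opposite directions at 2.5 h and at 0 h were singled out. With 1 array per genotype and time, the difference between the times was not tested. On the lower side at 2.5 h were 2 genes. Il7, the cytokine interleukin 7, differed by -1.82 (log2, KO minus WT) at 2.5 h and by 1.26 at 0 h, and read 222, 139 and 127 at 0, 2.5 and 4 h in KO, against 93, 491 and 1062 in WT. Palm2, a membrane-associated protein of the paralemmin family, differed by -1.70 at 2.5 h and by 1.20 at 0 h, and read 147, 218 and 257 in KO, against 64, 706 and 723 in WT. In both, WT was the lower genotype before hCG and the higher one after it.

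On the higher side at 2.5 h were 4 genes. Ptgfr, the receptor of prostaglandin F2-alpha, differed by 1.45 at 2.5 h and by -2.79 at 0 h. Tulp2 differed by 1.63 at 2.5 h and by -1.18 at 0 h, and read 100, 381 and 216 in KO, against 226, 123 and 24 in WT. St8sia1, a sialyltransferase of gangliosides, differed by 1.58 at 2.5 h and by -1.06 at 0 h, and read 38, 150 and 71 in KO, against 79, 50 and 25 in WT. Hspa1b, a heat shock protein gene, differed by 1.22 at 2.5 h and by -1.29 at 0 h, and read 948, 1947 and 1827 in KO, against 2325, 833 and 567 in WT.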

How the results depend on the processing

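With 1 array per genotype and time, no replicate could be left out, and folds of genes under the floor in a genotype rest on background. No paired analysis was possible because each group holds 1 array and no replicate numbers are shared; limma instead took time as a block. At 2.5 h, the 352 lower and 169 higher genes became 426 and 125 with cyclic loess (352 and 125 shared), 446 and 112 with centred differences (352 and 112 shared) and 160 and 31 at 3-fold. Over a higher, a lower and no floor, a pseudocount of 16 and other probe set rules, the counts stayed between 298 and 377 lower and 119 and 173 higher. Genes higher at both 2.5 h and 4 h were 71 with cyclic loess instead of 108.

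For genes induced in WT at 4 h, the 148 lower and 2 higher in KO became 239 and 11 at a 2-fold response, 85 and 0 at 8-fold, and 20 and 23 when chosen on KO arrays. For repressed genes, the 5 lower and 4 higher became 9 and 29 at 2-fold, 3 and 2 at 8-fold, 0 higher when chosen on KO and 2 higher with cyclic loess. With limma, 3 lower and 1 higher became 0 and 0 with cyclic loess or without a filter, 29 and 8 at a mean log2 of 7, 278 and 193 without the 0 h pair, 13 and 3 without the 2.5 h pair, 182 and 63 without the 4 h pair, and 7 lower with a trend; the cause was not tested. With cyclic loess or without a filter, 1839 and 2694 genes had an unadjusted p under 0.05.

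All 38 list medians moved by less than 0.3 with cyclic loess. At the higher floor the median of ERK feedback genes moved from -0.73 to -1.12 and that of tissue factor, plasminogen and matrix proteases from -0.65 to -0.33. With the mean of all probe sets, that of ovulation regulators moved from -0.90 to -1.40 and that of luteal genes from -0.32 to -0.62. The theca marker median turned to -0.078 at the higher floor, and Dip2a to -0.09 by its least different probe set, which also took B4galt6 (0.70) and Gng13 (0.26) under 2-fold. All 40 genes furthest from WT stayed past 2-fold with cyclic loess.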

Other observations

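Array controls aside, the annotation left 10092 probe sets with no gene name or several. At 2.5 h 2762 of them were over the floor, and 71 (2.57%) were at least 2-fold lower and 69 (2.5%) higher in KO. The lowest of these read 644, 191 and 107 at 0, 2.5 and 4 h in KO, against 477, 3759 and 15274 in WT, so after hCG it lay under its 0 h level in KO and far above it in WT. The highest read 20, 242 and 48 in KO, against 29, 22 and 21 in WT, and was over the floor only in KO at 2.5 h.

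Besides Egr3, some genes were within 2-fold by the brightest probe set but not by another, and were named after their values were seen. For Abhd2, a lipase, the brightest probe set read 2402 in KO and 2681 in WT at 2.5 h, and another read 26, 36 and 38 in KO, against 26, 300 and 787 in WT. Nptx1, a neuronal pentraxin, read 43 in KO and 68 in WT by the brightest probe set, and 22 in KO and 175 in WT by another. For Klk1, a tissue kallikrein, another probe set read 172, 345 and 540 in KO, against 64, 46 and 51 in WT, while the brightest read 181 in KO and 194 in WT.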
